A study of Homo sapiens with 24 samples.

Results

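In all, 8 plasma membrane amino acid transporter genes of growing cells were followed across 2 breast epithelial lines and 3 hairpins. They were SLC7A5, SLC3A2, SLC1A5, SLC1A4, SLC7A1, SLC38A1, SLC38A2 and SLC43A1, taken by symbol as 8 of the 59251 rows of the deposited count table. All 8 passed the filter on low counts and were among the 20820 genes tested. The study measured polyadenylated RNA of MCF10A, an established non-tumorigenic human breast epithelial line, to ask how lowering CHD1, a chromatin remodeler, alters gene expression in cells with and without transformation by MYC. PE cells are the non-transformed line and PM cells the MYC-transformed line; the labels spell out neither abbreviation. Each line carried a control hairpin against GFP (shGFP) or 1 of 2 hairpins against CHD1 (shCHD1 A and shCHD1 B). The 6 groups thus held 4 libraries each, 24 in all, and every culture, controls included, had received doxycycline at 50 ng/ml for 72 h. Libraries of a group are labelled as biological replicates, but nothing tells whether they came from separately grown cultures. The p-values therefore describe only the spread among libraries within groups. For the tests of single genes that spread was estimated from all 24 libraries together. The labels do not say whether each line is a single clone.

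Amino acid transporters set how fast a cell can take up the substrates of protein synthesis. SLC7A5 (LAT1) is a light chain that works only when bound to the SLC3A2 glycoprotein (4F2hc, CD98). The pair imports leucine and other large neutral amino acids in exchange for glutamine and similar amino acids, and leucine in turn activates the growth kinase complex mTORC1. SLC1A5 (ASCT2) and SLC1A4 (ASCT1) exchange small neutral amino acids, glutamine being a main substrate of the former. SLC38A1 (SNAT1) and SLC38A2 (SNAT2) bring in glutamine and alanine with sodium, and SLC38A2 is known for being raised when amino acids run short. SLC7A1 (CAT1) imports arginine and lysine, and SLC43A1 (LAT3) lets branched-chain amino acids and phenylalanine pass down their gradient without a heavy chain. MYC, which binds the E-box letters CACGTG, and ATF4, which binds composite elements of the form TGATGNAA, are known regulators of several of these genes.

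The sequences at the start sites are shown because the lines differ in MYC and because both factors are known to act at such letters. RefSeq (GRCh38.p14) gave 15 start sites for the 8 genes, each with a window from 250 bases before to 50 after the start. CACGTG, which reads the same on both strands, was found at 3 starts of 3 genes, against 7.26% of all 35116 such windows and 8.77% of 27305 genes. Those 3 places follow 5′ to 3′ on the gene's strand, with the motif in capitals.
SLC7A5, chr16:87869620-87869649, minus strand, upstream of the gene: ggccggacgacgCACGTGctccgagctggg
SLC1A5, chr19:46787326-46787355, minus strand, at an internal start: ggcgggagtggtCACGTGgacaggacgggg
SLC43A1, chr11:57515797-57515826, minus strand, upstream of the gene: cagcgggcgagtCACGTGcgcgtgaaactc
The first base of the motif lies at position −130 from the start of SLC7A5, −50 from the SLC1A5 start at 46787293 and −112 from the first start of SLC43A1. TGATGNAA, searched on both strands and overlapping no CACGTG in these windows, was found at 5 starts of 5 genes, against 3.62% of windows and 4.46% of genes. Its places, with the match in capitals, follow.
SLC3A2, chr11:62881725-62881748, plus strand, motif on the other strand: tgcaggactccTTACATCAgctcc
SLC1A5, chr19:46784893-46784922, minus strand, at another internal start: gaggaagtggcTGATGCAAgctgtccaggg
SLC1A4, chr2:64989381-64989410, plus strand, motif on the other strand: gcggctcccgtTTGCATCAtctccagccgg
SLC7A1, chr13:29595663-29595692, minus strand, just after the start: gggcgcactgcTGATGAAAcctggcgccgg
SLC38A1, chr12:46266502-46266531, minus strand, spanning the start: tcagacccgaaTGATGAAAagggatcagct
The places in SLC3A2, SLC1A4 and SLC38A1 also belong to internal starts, at 62881699, 64989399 and 46266516. Letters that match a motif are a description of these windows and do not show a bound site.

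SLC7A5 and SLC38A2 carry the main differences described here, and their 250 bases before the start are printed whole so that they can be set side by side.
SLC7A5, chr16:87869508-87869757, minus strand: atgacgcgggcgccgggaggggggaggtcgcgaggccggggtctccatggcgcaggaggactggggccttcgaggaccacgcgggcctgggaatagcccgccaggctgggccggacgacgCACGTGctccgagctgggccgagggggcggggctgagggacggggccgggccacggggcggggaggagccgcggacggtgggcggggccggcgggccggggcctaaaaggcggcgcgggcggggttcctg
SLC38A2, chr12:46372774-46373023, minus strand: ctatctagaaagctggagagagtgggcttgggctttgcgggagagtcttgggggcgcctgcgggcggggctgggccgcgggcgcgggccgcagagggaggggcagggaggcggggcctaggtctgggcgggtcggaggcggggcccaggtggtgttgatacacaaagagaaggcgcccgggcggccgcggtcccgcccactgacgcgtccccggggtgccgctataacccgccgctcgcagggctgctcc
The SLC7A5 stretch, 79.6% G and C, holds the CACGTG shown above in capitals. The SLC38A2 stretch, 73.6% G and C, holds neither set of letters, nor do the 50 bases after its start. That says only that these letters are not in this window.

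On GRCh38.p14, SLC7A5 lies at chr16:87830023-87869507 on the minus strand, where SLC7A5-AS1, MIR6775 and MIR11401 overlap it. SLC3A2 lies at chr11:62856109-62888860 on the plus strand, SLC1A5 at chr19:46774883-46788594 on the minus strand and SLC1A4 at chr2:64988479-65023865 on the plus strand. SLC7A1 lies at chr13:29509414-29595688, SLC43A1 at chr11:57484534-57515702, and SLC38A1 and SLC38A2 are near neighbours at chr12:46183063-46269043 and chr12:46358188-46372773, all 4 on the minus strand. The pseudogene SLC7A5P2 held 2514 counts over all libraries, 0.393% of those of SLC7A5, and SLC7A5P1 held 0. Reads can be exchanged between SLC7A5 and these copies, and, since the strand setting of the counting is not given in the sources used here, reads of SLC7A5 and its antisense gene cannot be told apart.

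Libraries held from 4142862 to 93299393 counts. The shallowest was PE shGFP replicate 1. PM shCHD1 B replicate 3 stood apart with 33137 genes that had a count, and PM shCHD1 A replicate 4 with 19514, against 21732 to 24764 in the rest other than the shallow library, which had 18380. Without these 2 PM libraries, 4 of the 8 transporters still passed the test under each hairpin in PM. CHD1, given in CPM, counts scaled to a common library size with TMM factors, stood at 78.7 ± 5.53 in PE shGFP and 89.9 ± 5.18 in PM shGFP (mean ± SD, n = 4, as throughout). It stood at 29.2 ± 1.2 and 28.05 ± 3.07 with hairpins A and B in PE, and at 31.03 ± 2.76 and 29.4 ± 5.4 in PM. MYC stood at 275 ± 17.7 CPM in PE shGFP and 518 ± 27.4 in PM shGFP. It was 564 ± 28.2 with hairpin A in PM, and it fell to 392 ± 12.3 with hairpin B in PM (log2 change −0.4, edgeR adjusted p = 3.57e-06). The 15 breast epithelial markers summed to 7455–9852 CPM in PE shGFP, 5578–7259 with hairpin A and 4343–5084 with hairpin B in PE. In PM they summed to 6445–7453, 3978–4130.4 and 5043–5682. Under both hairpins 6 of the 14 tested were lower and 1 higher in PE, against 5.58% and 6.75% of all genes. In PM 5 were lower and 1 higher, against 6.89% and 6.46%. KRT17 and LAMB3 were among those lower in both lines. TP63 (at most 1.35 CPM) and KRT19 (at most 0.24) were at or near 0 in every library. Fibroblast markers summed to 14.1–66.4 CPM, immune markers to 36.1–85.5 and endothelial markers to 0.607–15.2, with CD3E, CDH5 and VWF under 0.5 CPM in each library. Over all libraries together, the largest parts of these sums came from DCN (1.21–55.1 CPM over the libraries), CD68 (14.4–65.4), CD14 (10.4–34.2) and PECAM1 (0.176–12.1). In PM with hairpin A, COL1A1, at a mean of 10.1 CPM, stood above DCN at 3.24. With shGFP, 3 of the 14 epithelial markers tested were higher in PM than in PE and 4 lower, against 14.1% and 11.4% of all genes. EPCAM (log2 2.23) and CDH1 (1.63) were higher, and KRT14 (−2.79) and LAMB3 (−1.16) lower. Of the other markers, PECAM1 (−3.09), TEK (−2.33), DCN (−1.71) and CD14 (−0.65) were lower in PM than in PE, and LUM (3.63) was higher. The part of these marker differences in the results on the transporters was not tested.

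Per kilobase of exon, which allows genes to be ordered, SLC7A5 was the most abundant of the 8 in every group but 1. In PE shGFP it stood at 87.0 ± 11.2 CPM per kb, followed by SLC1A5 at 71.1 ± 5.23, with overlapping ranges (70.8–95.5 and 66.1–76.8). SLC38A2 at 44.1 ± 7.35 and SLC3A2 at 41.8 ± 6.8 came next and overlapped, and SLC38A1 stood at 31.5 ± 1.45 and SLC7A1 at 14.1 ± 0.89. SLC1A4 (0.435 ± 0.156) and SLC43A1 (0.301 ± 0.225) lay far below the other 6 and overlapped each other.

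In PM shGFP, SLC7A5 reached 206 ± 19.7 CPM per kb, above SLC1A5 at 101 ± 9.33 and SLC3A2 at 71.7 ± 6.33 with no overlap. SLC38A2 (34.8 ± 2.38) and SLC38A1 (32.9 ± 2.1) overlapped there, with SLC7A1 at 18.2 ± 2.01 and SLC43A1 and SLC1A4 at 0.532 ± 0.125 and 0.5 ± 0.112. The order differed with hairpin A. In PE with hairpin A, SLC1A5 (55.8–71.4 CPM per kb) stood above SLC7A5 (38.8–52.6) in every library, and SLC3A2 (30.3–40.7) above SLC38A2 (25.4–28.3). In PM with hairpin A, SLC38A2 (15.0–17.6) took the last place among the 6 abundant genes, below SLC38A1 (33.7–38.1) and SLC7A1 (19.0–22.9) with no overlap.

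**Figure D1:**
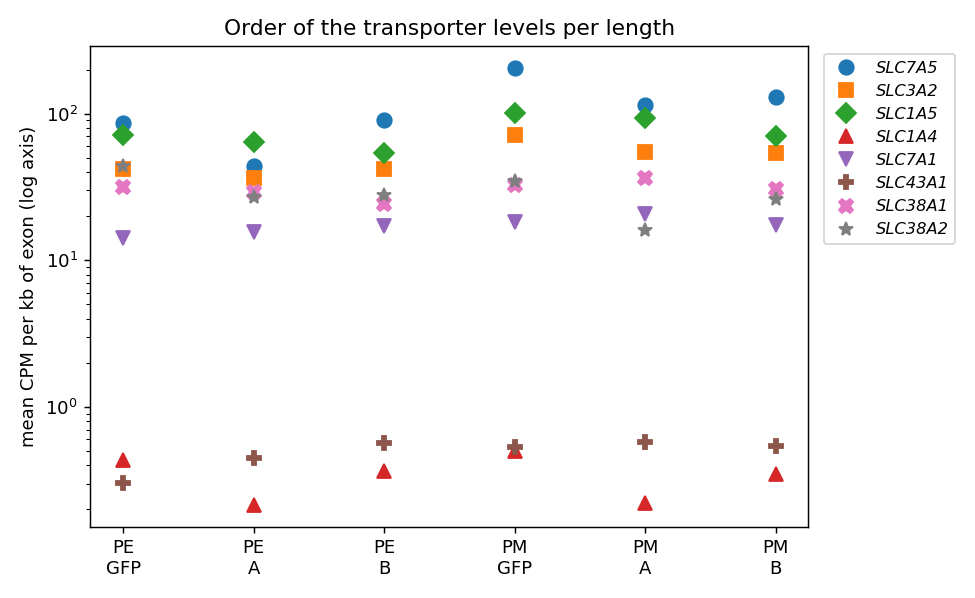
Mean level of each transporter over 4 libraries, in CPM per kb of exon (log axis), in the 6 groups of line and hairpin. SLC7A5 is highest in all groups but PE with hairpin A, and SLC1A4 and SLC43A1 lie under 1 CPM per kb throughout.

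The comparison of the lines with the control hairpin asked how the transporters differ with MYC transformation. SLC7A5, SLC3A2, SLC1A5 and SLC7A1 were higher in PM than in PE, SLC38A2 was lower, and SLC1A4, SLC38A1 and SLC43A1 did not pass the test. The 5 calls among 8 genes compare with 25.5% of all genes tested, 14.1% higher and 11.4% lower. Of the 2090 genes that averaged at least 100 CPM, a level that 6 of the transporters exceed, 51.1% passed. All 5 calls lay among those 6. The median log2 difference was 0.43 over the 8 genes and 0.02 over all genes. As RNA came from whole cultures, fewer cells of a kind and less RNA per cell cannot be told apart here or in the results that follow.

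SLC7A5 stood at 336, 419, 444 and 453 CPM in the 4 PE shGFP libraries and at 908, 1055, 886 and 1061 in PM shGFP. The groups did not overlap, and the level was 2.36-fold higher in PM (log2 difference 1.24, approximate SE 0.12, adjusted p = 2.58e-08 by edgeR's quasi-likelihood test). All 12 PM libraries (519 to 1061) lay above all 12 PE libraries (184 to 504), whatever the hairpin. Its heavy chain SLC3A2 stood at 166, 238, 218 and 243 CPM in PE shGFP and at 364, 409.7, 331 and 379.9 in PM shGFP. These groups too were apart, by 1.71-fold (log2 0.77, edgeR adjusted p = 8.59e-06).

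The glutamine exchanger SLC1A5 stood at 220.2, 256, 224 and 247 CPM in PE shGFP and at 349, 373, 310 and 309.8 in PM shGFP, 1.41-fold higher with no overlap (log2 0.5, edgeR adjusted p = 2.31e-05). The arginine carrier SLC7A1 was 98.1, 113, 111 and 111 CPM against 132, 139, 127 and 162, a difference of 1.29-fold with no overlap (log2 0.36, edgeR adjusted p = 0.00364). SLC38A2 ran the other way, with 351, 299.9, 279.6 and 234 CPM in PE shGFP and 247, 227, 235 and 209.6 in PM shGFP. It was lower in PM by the test (log2 −0.34, edgeR adjusted p = 0.00521), although the lowest PE library lay below the 2 highest PM libraries. SLC38A1, the other sodium-coupled glutamine carrier, averaged 315 ± 14.2 and 329 ± 21.2 CPM (log2 0.06, 95% interval −0.08 to 0.21, edgeR adjusted p = 0.593).

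SLC1A4 averaged 3.01 ± 1.09 CPM in PE shGFP and 3.47 ± 0.776 in PM shGFP, and its interval was wide (log2 0.13, 95% interval −0.55 to 0.81). SLC43A1 averaged 1.06 ± 0.794 and 1.88 ± 0.437 CPM (log2 0.64, 95% interval −0.2 to 1.47, edgeR adjusted p = 0.294). The shallow PE shGFP library held 0 counts of SLC43A1, which at its 4142862 counts in all allows up to 0.667 CPM, for counting error only.

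The line difference was also read within each CHD1 hairpin. With hairpin A, SLC7A5 (log2 1.37), SLC3A2 (0.58), SLC1A5 (0.54), SLC7A1 (0.41) and SLC38A1 (0.31) were higher in PM and SLC38A2 (−0.74) was lower. Those 6 calls compare with 39.9% of all genes (20.1% higher and 19.8% lower) and 67.9% of the abundant ones. With hairpin B, SLC7A5 (0.53), SLC1A5 (0.38), SLC3A2 (0.36) and SLC38A1 (0.33) were higher in PM and none was lower, against 30.1% of all genes (15.7% higher) and 59.7% of the abundant ones. The SLC3A2 call with hairpin B was lost without PE shCHD1 B replicate 3 (adjusted p = 0.0635) or PM shCHD1 B replicate 4 (adjusted p = 0.0606), and the SLC38A1 groups overlapped there.

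**Figure D2:**
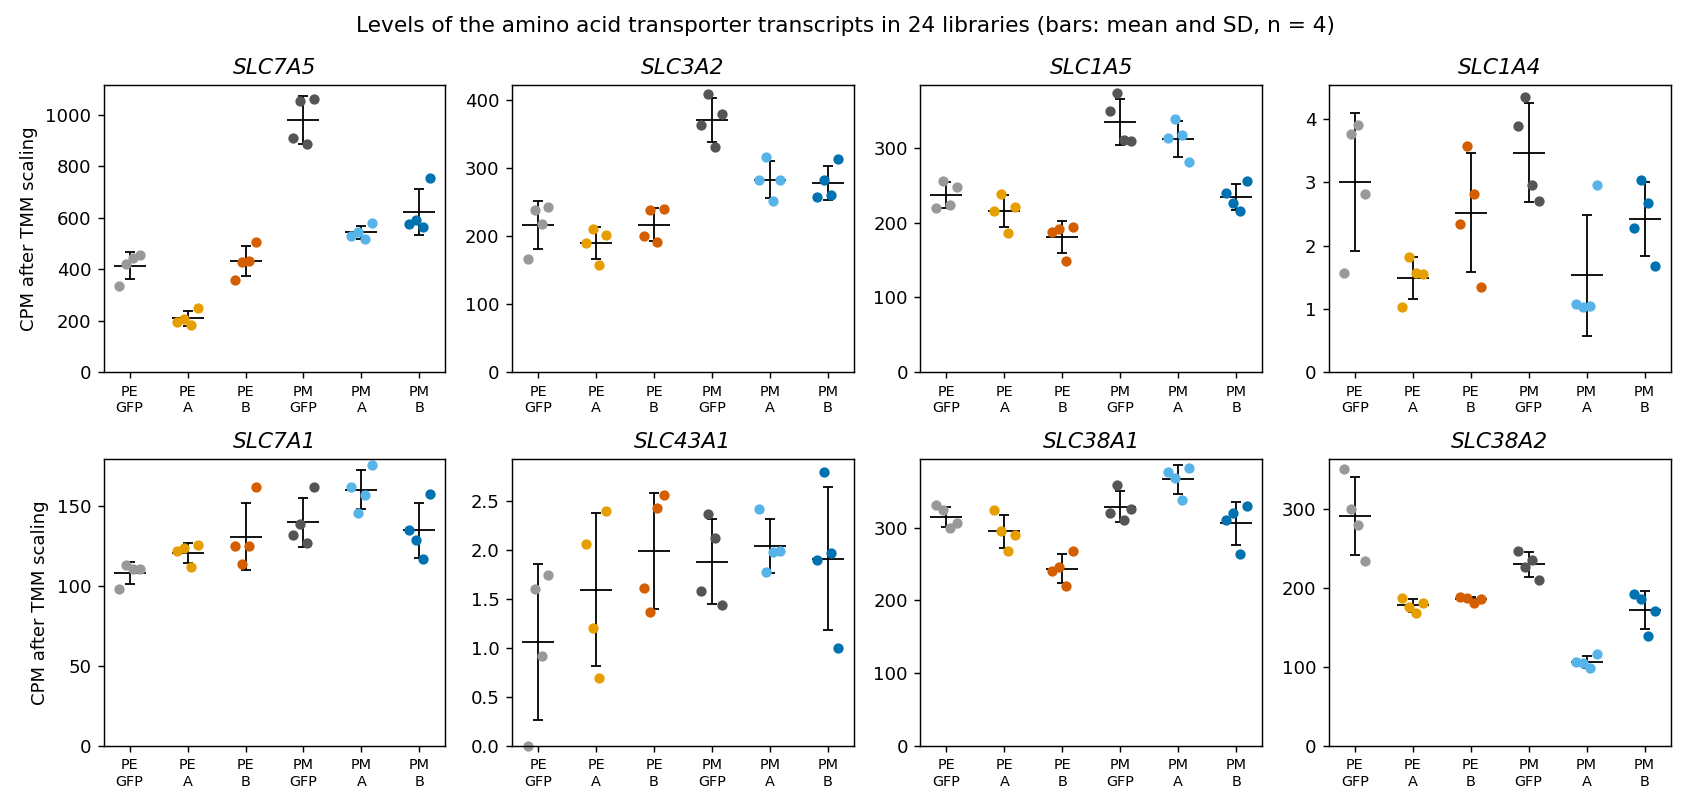
CPM of each transporter in every library (points), with the mean and SD of each group of 4, on linear axes from 0 that differ between panels. SLC7A5 is higher in every PM library than in every PE library, and SLC38A2 is lower with each CHD1 hairpin than with shGFP in the same line.

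The comparisons of each CHD1 hairpin with shGFP asked what CHD1 knockdown does in each line. SLC38A2 fell with both hairpins in both lines. SLC7A5 fell with hairpin A in both lines and with hairpin B in PM, and SLC3A2 fell with both hairpins in PM. SLC1A5 fell with hairpin B in both lines, and SLC1A4 fell with hairpin A in both lines. In PE, 3 of the 8 genes passed with hairpin A, all lower, and 4 with hairpin B, 3 lower and 1 higher, against 20.2% and 26.8% of all genes tested. In PM, 4 passed with each hairpin, all lower, against 27.8% and 28.1%. With a filter of 5 CPM in place of the main one, which left 6 of the 8 tested, 3 were lower and 2 (SLC38A1 and SLC7A1) higher with hairpin A in PM. By direction, 9.33% of all genes were lower with hairpin A in PE, and with hairpin B 13.2% were lower and 13.6% higher. In PM 14.3% and 14.4% were lower with hairpins A and B. Genes of at least 100 CPM passed more often, with shares of 38.2% (A) and 46.9% (B) for PE and 49.5% (A) and 49.3% (B) for PM. The members' shares thus lay above the background over all genes. The shares of abundant genes are not a like background for all 8, as SLC1A4 and SLC43A1 were rare. SLC1A4 was among the calls with hairpin A. Without it, those calls were SLC7A5 and SLC38A2 in PE, and SLC7A5, SLC3A2 and SLC38A2 in PM. As parts of the 6 abundant members, they lie near the 38.2% and 49.5% of abundant genes. With hairpin B all 4 calls in each line were among these 6, above the 46.9% and 49.3%.

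The median log2 change of the 8 genes was −0.17 with each hairpin in PE, and −0.25 and −0.42 with hairpins A and B in PM. Medians over all genes lay between −0.01 and 0.01. Lower under both hairpins were 1 of 8 genes in PE (SLC38A2) and 3 of 8 in PM (SLC7A5, SLC3A2 and SLC38A2), against 5.58% and 6.89% of all genes. No transporter was higher under both hairpins in PE or in PM, where 6.75% and 6.46% of all genes were. With library sizes in place of TMM factors, the share of higher genes among all calls under hairpin A in PE went from 53.8% to 39.3%. Both hairpins of a line were compared with the same shGFP libraries. Whether a change under 1 hairpin alone comes from the fall of CHD1 was not tested.

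With hairpin A in PE, SLC7A5 stood at 196, 208, 184 and 249.5 CPM, and under hairpin B it stood at 359, 428, 431 and 504, beside the 336 to 453 of shGFP. The hairpin A libraries all lay below shGFP (log2 change −0.98, SE 0.11, edgeR adjusted p = 1.27e-06), while those of hairpin B overlapped it (0.06, 95% interval −0.18 to 0.29, edgeR adjusted p = 0.792). The hairpins themselves differed 2.06-fold in PE (log2 1.04, edgeR adjusted p = 7.2e-07).

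In PM, hairpin A left SLC7A5 at 528, 545, 519 and 578 CPM, and hairpin B at 577, 589.5, 563 and 754. Both groups lay wholly below the 886 to 1061 of shGFP, with log2 changes of −0.85 (SE 0.11, edgeR adjusted p = 4.46e-06) and −0.66 (SE 0.11, edgeR adjusted p = 0.000109). The hairpins did not differ by the test there (0.19, 95% interval −0.04 to 0.43, edgeR adjusted p = 0.237), but did with no filter on low counts (0.2, adjusted p = 0.0411). Of the 4 comparisons of a CHD1 hairpin with shGFP, MYC itself passed the test in that of hairpin B in PM. With hairpin A its log2 changes were −0.1 in PE and 0.12 in PM, beside the fall of SLC7A5 in both.

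SLC3A2 in PE stood at 189.9, 211, 157 and 202 CPM under hairpin A, and hairpin B libraries held 200.4, 238, 192 and 239.5, both overlapping shGFP. Its log2 change with hairpin A was −0.19 (95% interval −0.42 to 0.03), which passed without the shallow PE shGFP replicate 1 (−0.29, edgeR adjusted p = 0.0367). That change also passed with no filter on low counts and with the replicate number as a block. With hairpin B it was 0 (95% interval −0.23 to 0.23). In PM the hairpin A libraries held 283, 316, 251 and 283 CPM and the hairpin B libraries 258, 282, 260.4 and 313, all below the 331 to 409.7 of shGFP. It fell by 0.39 and 0.42 on the log2 scale (edgeR adjusted p = 0.00865 and 0.00528).

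Because the products of SLC7A5 and SLC3A2 act as a pair, the ratio of their counts was taken in each library, where scaling cancels. In PE shGFP the ratio was 2.03, 1.76, 2.04 and 1.86. With hairpin A in PE it was 1.03, 0.987, 1.17 and 1.24, and with hairpin B 1.79, 1.8, 2.24 and 2.1. Hairpin A thus lowered the light chain transcript relative to the heavy chain in PE, to 0.574 of the control ratio (log2 −0.8, exact permutation p = 0.0286, adjusted p = 0.0357). Hairpin B did not separate from control in PE (log2 0.04, exact permutation p = 0.686).

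In PM shGFP the ratio was 2.49, 2.58, 2.68 and 2.79, above all PE shGFP libraries (log2 0.46, exact permutation p = 0.0286, adjusted p = 0.0357). It was 1.86, 1.72, 2.07 and 2.04 with hairpin A in PM and 2.24, 2.09, 2.16 and 2.41 with hairpin B. Both groups lay below control, at 0.729 and 0.844 of its ratio (log2 −0.46 and −0.24, each exact permutation p = 0.0286, adjusted p = 0.0357). The test was two-sided, 0.0286 is the smallest p that 4 against 4 libraries can give, and adjustment was over these 5 comparisons.

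**Figure D3:**
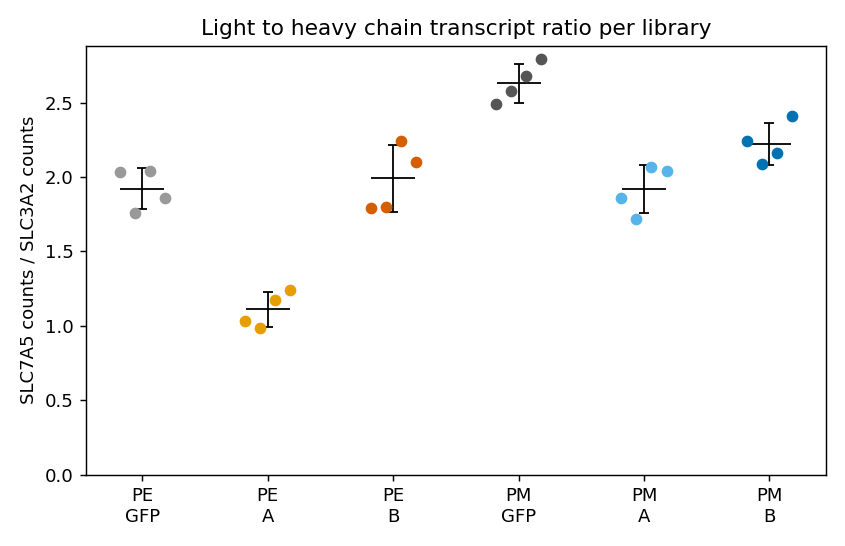
Ratio of SLC7A5 to SLC3A2 counts in each library (points) with the mean and SD of each group of 4. The ratio runs from 2.49 to 2.79 in PM shGFP and from 0.987 to 1.24 in PE with hairpin A, with the other 4 groups between 1.72 and 2.41.

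SLC1A5 stood at 188, 191, 148 and 194 CPM with hairpin B in PE, below the 220.2 to 256 of shGFP (log2 −0.4, SE 0.084, edgeR adjusted p = 0.000458). With hairpin B in PM it stood at 239, 226, 216 and 256, below the 309.8 to 373 of shGFP (log2 −0.52, edgeR adjusted p = 1.1e-05). With hairpin A it averaged 215 ± 21.4 CPM in PE and 312 ± 23.6 in PM, overlapping control in both (log2 −0.14 and −0.1, edgeR adjusted p = 0.273 and 0.416). The PE value for hairpin A passed as lower with library sizes alone (−0.21, edgeR adjusted p = 0.0497). Hairpin B lay below hairpin A in both lines by the test (log2 −0.25 in PE and −0.42 in PM, edgeR adjusted p = 0.0319 and 0.000257). The PE groups overlapped, and that call was lost with library sizes alone (adjusted p = 0.061) and without PE shCHD1 B replicate 3 (−0.17, adjusted p = 0.181) or any of PE shCHD1 A replicates 1, 2 and 4.

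SLC1A4, a carrier of serine, alanine and cysteine, was rare. It stood at 1.56, 3.77, 3.91 and 2.82 CPM in PE shGFP and at 1.03, 1.82, 1.56 and 1.55 with hairpin A. In PM it stood at 3.89, 4.35, 2.95 and 2.7 with shGFP and at 1.08, 1.03, 1.05 and 2.96 with hairpin A. The groups overlapped in both lines, by the lowest control library in PE and by replicate 4 of hairpin A in PM. The log2 changes were −1.09 (95% interval −1.79 to −0.39, edgeR adjusted p = 0.021) and −1.2 (95% interval −1.88 to −0.51, edgeR adjusted p = 0.00647).

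The PE call for SLC1A4 was lost without PE shCHD1 A replicate 1 (adjusted p = 0.0774), PE shGFP replicate 2 (0.0634) or PE shGFP replicate 3 (0.0826). With hairpin B it averaged 2.52 ± 0.935 CPM in PE and 2.42 ± 0.589 in PM, with log2 changes of −0.34 and −0.52 that did not pass. The hairpins did not differ by the test in PM (log2 0.68, adjusted p = 0.145), but did without PM shCHD1 A replicate 4 (1.2, adjusted p = 0.00606).

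SLC7A1 changed little. In PE it stood at 122, 124, 112 and 126 CPM under hairpin A, and hairpin B libraries held 125, 114, 125 and 162, beside 98.1 to 113 with shGFP. Hairpin B was higher by the test (log2 0.28, edgeR adjusted p = 0.027), a call lost without PE shCHD1 B replicate 4 (0.16, adjusted p = 0.195) or PE shGFP replicate 1 (0.24, adjusted p = 0.0922). Hairpin A was at 0.15 (adjusted p = 0.288). In PM it averaged 160.4 ± 12.3 CPM under hairpin A and 135 ± 17.2 under hairpin B (log2 0.2 and −0.05, edgeR adjusted p = 0.119 and 0.765). The value for hairpin A passed with the 5 CPM filter (0.21, adjusted p = 0.0425), with no filter (adjusted p = 0.0469) and without PM shGFP replicate 4 (0.27, adjusted p = 0.0299). Hairpin B lay below hairpin A in PM (−0.25, adjusted p = 0.0466) with overlapping groups, a call lost with library sizes alone (adjusted p = 0.0625) and without any of 6 of the 8 libraries compared.

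SLC38A2 stood at 187, 176, 168 and 181 CPM with hairpin A in PE and at 188, 187, 181 and 186 with hairpin B. All 8 lay below the 234 to 351 of shGFP, by −0.7 and −0.64 on the log2 scale (SE 0.091 and 0.09, edgeR adjusted p = 7.64e-07 and 1.74e-06). The hairpins did not differ by the test in PE (0.06, adjusted p = 0.742).

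In PM, SLC38A2 stood at 106, 105, 98.8 and 116 CPM with hairpin A, far below the 209.6 to 247 of shGFP, at 0.463 of its level (log2 −1.11, SE 0.091, edgeR adjusted p = 7.85e-11). With hairpin B it stood at 192, 186, 139 and 171, also wholly below control (−0.42, edgeR adjusted p = 0.000563). The hairpin A libraries lay below all those of hairpin B in PM (log2 0.69 for B minus A, edgeR adjusted p = 6.44e-07).

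Its neighbour and close relative SLC38A1 stood at 240, 246, 219.8 and 268 CPM with hairpin B in PE, below the 300.4 to 331 of shGFP (log2 −0.37, SE 0.071, edgeR adjusted p = 0.000104). The other changes from shGFP did not pass, at −0.09 with hairpin A in PE, 0.16 with hairpin A in PM and −0.1 with hairpin B in PM. The value for hairpin A in PM passed with the 5 CPM filter (0.17, adjusted p = 0.0396), with the compared groups alone (adjusted p = 0.0425) and without PM shGFP replicate 2 (0.2, adjusted p = 0.0449). Hairpin B lay below hairpin A in both lines (−0.28 in PE and −0.26 in PM, edgeR adjusted p = 0.0049 and 0.00531), in PM not without PM shCHD1 B replicate 3 (adjusted p = 0.0526).

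SLC43A1 passed in no comparison. Its libraries held from 0 to 2.79 CPM. With hairpins A and B it averaged 1.59 ± 0.781 and 1.99 ± 0.591 CPM in PE and 2.04 ± 0.275 and 1.91 ± 0.731 in PM. The intervals of the log2 changes were wide, −0.43 to 1.24 with hairpin A and −0.1 to 1.57 with hairpin B in PE, and −0.69 to 0.91 and −0.78 to 0.81 in PM.

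**Figure D4:**
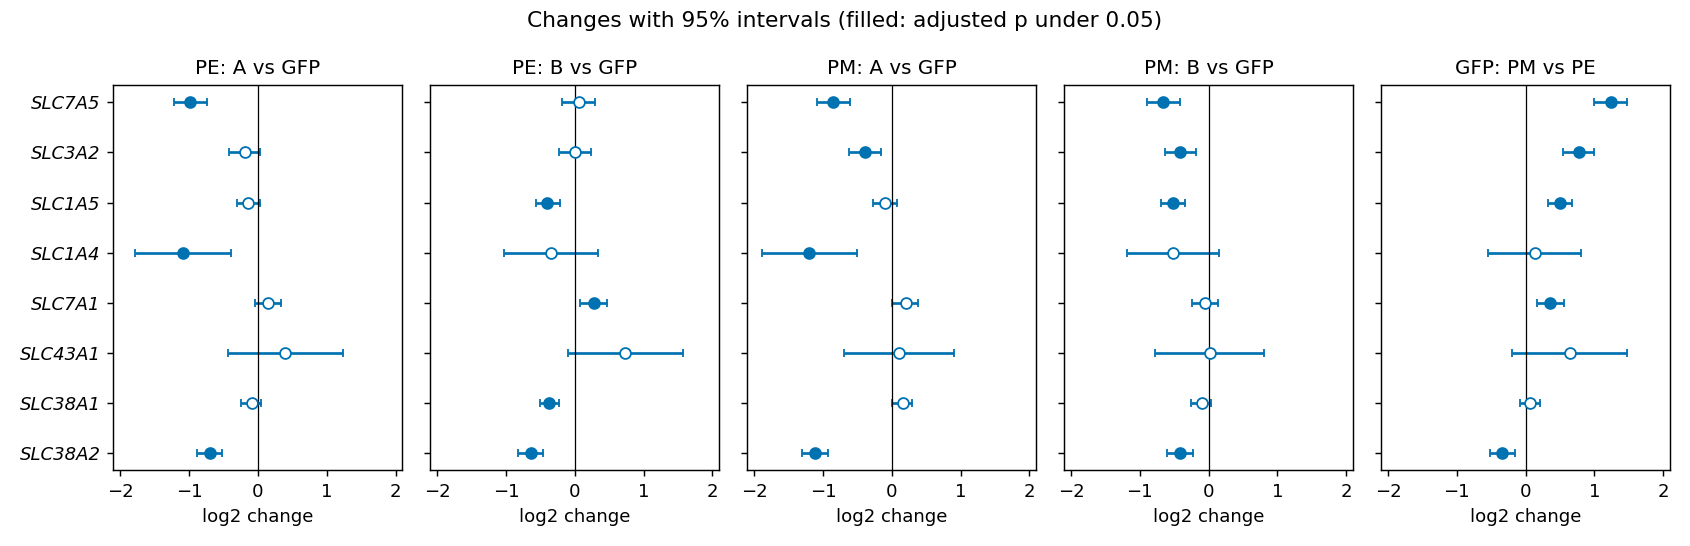
Log2 change of each transporter with its 95% interval, for each CHD1 hairpin against shGFP in PE and PM and for PM against PE with shGFP; filled points passed the adjusted threshold of 0.05. SLC38A2 lies below 0 with both hairpins in both lines, and SLC7A5 lies near 0 only with hairpin B in PE.

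Whether a hairpin acted differently in the 2 lines was tested as the difference of its effects. For hairpin B, SLC7A5 was the 1 of 8 genes that passed, against 2.45% of all genes, 0.980% in its direction. Its effect was lower in PM by −0.71 (SE 0.16, 95% interval −1.05 to −0.38, edgeR adjusted p = 0.0136). SLC3A2 had a difference of −0.42 (95% interval −0.74 to −0.09, adjusted p = 0.21) and SLC7A1 one of −0.33 (−0.59 to −0.06, adjusted p = 0.253), neither past the threshold, although SLC3A2 passed with no filter (−0.41, adjusted p = 0.00336). SLC38A1 had a difference of 0.27 (95% interval 0.07 to 0.47, adjusted p = 0.188), which passed with library sizes alone (0.34, adjusted p = 0.0359) and the 5 CPM filter (0.33, adjusted p = 0.0471). With the replicate number as a block, SLC3A2, SLC7A1 and SLC38A1 passed beside SLC7A5. MYC differed in the same contrast by −0.4 (edgeR adjusted p = 0.00546), and its part in the SLC7A5 difference was not tested.

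For hairpin A, SLC38A2 was the 1 of 8 that passed, against 6.66% of all genes and 3.90% in its direction, with an effect lower in PM by −0.41 (95% interval −0.67 to −0.15, edgeR adjusted p = 0.0493). That call lay at the threshold. It was lost with DESeq2 size factors (adjusted p = 0.112), DESeq2's Wald test (0.0772), library sizes alone (0.197) and a filter of 5 CPM (0.0943), and without any of 13 of the 16 libraries compared. With library sizes alone and with the 5 CPM filter, SLC38A1 passed instead, with an effect higher in PM (0.32 and 0.3, adjusted p = 0.0306 and 0.034, against 0.25 and 0.139 in the main analysis). SLC7A5 did not pass for hairpin A (0.13, 95% interval −0.2 to 0.47, adjusted p = 0.736). Between the hairpins in PE, 3 of 8 genes differed, 1 higher and 2 lower with hairpin B, against 16.6% of all genes (7.48% higher and 9.09% lower). In PM 4 differed, 1 higher and 3 lower, against 26.3% (12.7% and 13.5%).

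Among the 8 genes, log2 levels of SLC7A5 and SLC3A2 went together most closely over the 24 libraries (Pearson r 0.9, and 0.75 after each group's mean was removed). Within groups SLC7A5 and SLC7A1 had the same r of 0.75, and SLC3A2 and SLC1A5 had 0.71. SLC7A5 and SLC38A2 had an r of 0.01. These are descriptions of libraries that share groups and scaling. Among 10234 protein-coding genes averaging 5 CPM or more, those most like SLC7A5 over the 24 libraries were NCL (r 0.944), PHLPP1 (0.939), LRRC58 (0.929) and ACAT1 (0.924). NCL encodes nucleolin, an abundant nucleolar protein, and ACAT1 a mitochondrial thiolase. Those most like SLC38A2 were CTDSP2 (0.938), OSBPL2 (0.934), DDX59 (0.931) and MAP3K6 (0.928).

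Of 29 other plasma membrane amino acid transporters, 17 were tested. With the control hairpin, PM was higher for 2 and lower for 3 of them, against 14.1% and 11.4% of all genes. The glutamate carrier SLC1A1 (log2 −1.92) and the LAT4 gene SLC43A2 (−0.57) were lower, and SLC1A3 (0.51) and SLC6A15 (0.43) were higher. In PE each hairpin raised 1 and lowered 4. In PM 3 rose and 3 fell under hairpin A, while 2 rose and 3 fell under hairpin B. These counts lie near the shares of all genes that passed, 20.2% and 26.8% in PE and 27.8% and 28.1% in PM.

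Under both hairpins in PE, 0 of the 17 were higher and 2 were lower, against 6.75% and 5.58% of all genes. One was SLC7A2, a cationic carrier related to SLC7A1, at 71.1 CPM in shGFP and 32.3 and 41.6 with hairpins A and B (mean log2 −0.94). The other was SLC6A14, with 3, 6, 13 and 0 counts in shGFP and 0 in all 8 CHD1 hairpin libraries of PE. Its highest level, 0.667 CPM, came from the 3 counts of the shallowest library, so that call lies near the floor of counting. Under both in PM 1 was higher and 1 lower, against 6.46% and 6.89% of all genes. SLC43A2 rose there from 43.3 CPM to 87.8 and 74.9 (mean log2 0.9). The taurine carrier SLC6A6 fell there (−1.13 with A and −0.21 with B). In PE the same 2 hairpins moved SLC6A6 by −0.65 and 0.68. The median log2 change of the 17 lay between −0.21 and 0 in the 4 knockdown comparisons.

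The list of amino acid sensing to mTORC1, the route that reads what these transporters bring in, had 42 genes, all tested. Hairpins A and B raised 7 and 7 and lowered 1 and 7 in PE. In PM they raised 12 and 8 and lowered 4 and 10. Of all genes, 20.2% (A) and 26.8% (B) passed in PE and 27.8% and 28.1% in PM. In PE 5 were higher under both hairpins and 0 lower, against 6.75% and 5.58% of all genes. In PM 5 were higher and 2 lower, against 6.46% and 6.89%. RHEB, the GTPase that switches mTORC1 on, was at 39.9 CPM in PE shGFP and 120.2 and 106 with hairpins A and B, and at 40.2, 96.5 and 83.03 in PM (mean log2 1.48 and 1.15, larger edgeR adjusted p of the hairpins 8.39e-14 and 3.5e-11). BMT2, also called SAMTOR, an S-adenosylmethionine sensor that restrains mTORC1, rose too (mean log2 1.78 in PE and 1.56 in PM). CASTOR2, of the arginine sensor family, rose by 0.78 and 0.72. RRAGA rose in PE (0.62), and SLC38A9, a lysosomal arginine sensor, fell in PM (−0.54). Median changes of the list lay between 0.01 and 0.1.

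Between the lines with the control hairpin, 9 of the 42 sensing genes were higher in PM and 4 lower, against 14.1% and 11.4% of all genes. SEH1L (log2 0.56) and DEPTOR (1.21) were higher, and CASTOR1 (−1.85) and RRAGD (−2.37) lower, the last at a mean of 0.289 CPM in PE and 0.06 in PM.

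The list of the ATF4 pathway and its targets, which respond to amino acid shortage, had 38 genes, all tested. With the control hairpin, 18 were higher in PM than in PE and 2 lower, against 14.1% higher and 11.4% lower of all genes, and the median log2 difference was 0.22 against 0.02 over all genes. GARS1, the glycyl-tRNA synthetase, stood at 202 CPM in PE and 1608 in PM (log2 2.99, edgeR adjusted p = 1.28e-27). CBS (2.01) and CTH (1.2), of the transsulfuration pathway, were higher too, as was asparagine synthetase ASNS (1.6), which was rare at 0.463 and 1.61 CPM.

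Each CHD1 hairpin moved genes of the ATF4 list in both directions. Hairpins A and B gave 5 and 8 higher and 7 and 9 lower in PE, and 10 and 6 higher and 11 and 9 lower in PM. Of all genes, 20.2% and 26.8% passed in PE and 27.8% and 28.1% in PM. Under both hairpins 4 were higher and 3 lower in PE, among them VLDLR (mean log2 1.35), PPP1R15B (0.44), the serine synthesis enzyme PSAT1 (−0.54) and the proline synthesis enzyme PYCR1 (−0.47). In PM 5 were higher and 5 lower, among them SESN2 (0.51), CHAC1 (−1.03), CEBPB (−0.63) and EIF2AK3 (−0.57). The shares of all genes under both hairpins were 6.75% higher and 5.58% lower in PE, and 6.46% and 6.89% in PM. ATF4 list medians lay between −0.07 and −0.01 in the 4 comparisons.

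Of 20 genes of glutamine and branched-chain amino acid use, 19 were tested. With the control hairpin 12 were higher in PM and 0 lower, against 14.1% and 11.4% of all genes, with a median log2 difference of 0.29. GPT2 (0.62), which forms alanine with the amino group of glutamate, PPM1K (0.61) and the branched-chain aminotransferase BCAT2 (0.56) were among them. So was the rare glutaminase GLS2 (2.69, at 0.0809 and 0.676 CPM). Under knockdown, hairpins A and B gave 1 and 5 higher and 1 and 4 lower in PE, and 3 and 4 higher and 2 and 5 lower in PM, beside 20.2% and 26.8% of all genes that passed in PE and 27.8% and 28.1% in PM. Under both hairpins 0 were higher and 1 lower in PE, against 6.75% and 5.58% of all genes. In PM 1 was higher and 1 lower, against 6.46% and 6.89%. CAD, of pyrimidine synthesis, was lower under both in PE (mean log2 −0.33). In PM GPT was higher (1.93) and glutamine synthetase GLUL lower (−0.24).

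Of 13 genes of MYC and its partners, 12 were tested. Under both hairpins 1 was higher and 3 lower in PE, against 6.75% and 5.58% of all genes. In PM 2 were higher and 1 lower, against 6.46% and 6.89%. MXD4, an antagonist that competes for the partner MAX, was higher under both hairpins in both lines, from 102 to 207 and 195 CPM in PE and from 114 to 269 and 222 in PM (mean log2 0.96 and 1.09). MXD3, a relative of it, was lower in both (−0.37 and −0.84). MAX (−0.59) and MXD1 (−0.75) were lower under both in PE, and MLXIPL (1.97) was higher in PM, from 0.24 CPM to 0.779 and 1.15.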

How the data were processed

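The deposited values are whole-number counts per gene symbol. Per the submitters' processing notes, the authors used FastQC, Trim Galore 0.4.0, HISAT2 2.2.1 and featureCounts with the genome GRCh38. How reads with several matches were treated, which strand setting was used and which gene annotation served are details not given in the sources used here. Per the labels' protocols the library kit keeps strand. Every column was mapped to a sample by name, with 0 columns without a sample, and the table had no row without a gene name.

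Counts of all 24 libraries were fitted with edgeR 4.0.16 (R 4.3.3, limma 3.58.1) with 1 mean per group, TMM factors, filterByExpr and robust quasi-likelihood dispersions. The tests were two-sided, adjusted by Benjamini-Hochberg over the 20820 genes, with a threshold of 0.05 and 18 residual degrees of freedom. The median biological coefficient of variation was 18.96%. The approximate SE is the log2 change divided by the root of the F statistic. Replicates of a group differed by more than sampling noise, with chi-square per degree of freedom from 5.83 to 43.7. The SLC7A5 to SLC3A2 ratio was tested by exact permutation of 4 against 4 libraries. Levels per kb used union exon lengths of GENCODE v29, which stand in for the authors' annotation. Promoter windows and positions came from RefSeq GRCh38.p14 and matched all 8 genes. The script was tested on simulated data.

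The members and lists were chosen with earlier results of these data known. All 8 members were named in every comparison. From each other list, up to 4 genes were named per line, those past the threshold in 1 direction under both hairpins with the largest mean change. For PM against PE with shGFP, up to 4 past the threshold with the largest change were named. For likeness, the 4 genes with the highest r to SLC7A5 and to SLC38A2 over log2(CPM + 0.5) were named. SLC6A6 and SLC6A14 are given in more detail after their values were seen. Alternatives were DESeq2 1.42.0 size factors and Wald test, limma-voom, library sizes alone, 2 other filters, the compared groups alone, the replicate number as a block, and leaving out each library or 2 PM libraries together.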

Additional observations from a re-analysis of the deposited data

Results flagged for a closer look

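Of 54 groups examined, 4 held a library far from the other 3 of its group, where chance alone flags about 1 in 20 groups. SLC7A5 stood at 754 CPM in PM shCHD1 B replicate 4, against 563 to 589.5 in the rest of that group. SLC1A5 stood at 148 CPM in PE shCHD1 B replicate 3, against 188 to 194. SLC1A4 stood at 2.96 CPM in PM shCHD1 A replicate 4, against 1.03 to 1.08. SLC7A1 stood at 98.1 CPM in PE shGFP replicate 1, the shallowest library, against 111 to 113.

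A pair of results differed between the lines by a test of the difference itself. The effect of hairpin B on SLC7A5 was lower in PM than in PE by −0.71 on the log2 scale (edgeR adjusted p = 0.0136), with PM libraries of hairpin B all below control and PE libraries overlapping control. The effect of hairpin A on SLC38A2 was lower in PM by −0.41 (edgeR adjusted p = 0.0493), with every hairpin A library below control in both lines.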

How the results depend on the processing

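No value of a transporter that passed the threshold changed sign under the alternatives run, while some that did not pass and lay near 0 did, such as SLC7A1 with hairpin B in PM (−0.05, and up to 0.03 with a library left out). Of the values under the alternatives, 1503 kept their side of the threshold, 28 passed it only under the alternative and 39 no longer passed. For the difference between lines, 1 transporter passed for hairpin A, 0 with DESeq2 size factors, 0 with DESeq2's Wald test, 1 other (SLC38A1, higher in PM) with library sizes alone and with the 5 CPM filter, and 0 to 1 when each library was left out. For hairpin B, 1 passed, and 2 with the 5 CPM filter, 2 with library sizes alone and 2 with no filter. Between the hairpins in PM, 4 passed, and 2 to 4 when each library was left out, with 2 without PM shCHD1 B replicate 3. The log2 ratio of SLC7A5 to SLC3A2 with hairpin B in PM lay between −0.28 and −0.21 when each library was left out, with exact permutation adjusted p from 0.0286 to 0.0571. With the replicate number as a block, 2 transporters passed for the line difference of hairpin A (SLC38A2 lower and SLC38A1 higher in PM) and 4 for that of hairpin B (SLC7A5, SLC3A2 and SLC7A1 lower and SLC38A1 higher). Under the block SLC38A1 and SLC7A1 also passed as higher with hairpin A in PM (adjusted p = 0.0211 and 0.0156), and SLC7A5 differed between the hairpins in PM (0.19, adjusted p = 0.0202). With the block and with no filter, SLC3A2 passed in PE as lower with hairpin A than with shGFP and than with hairpin B. The ratio kept its differences under the block, −0.8, −0.46 and −0.24 for A in PE, A in PM and B in PM and 0.46 for the lines, but a sign-flip test of 4 pairs cannot go below 0.125, so its adjusted p of 0.156 says nothing. Same-numbered libraries of different groups had correlated deviations over 0.1 in 27 of 60 pairs, and 22 of 24 libraries correlated best with their own number. The S numbers in the column names also run in order of the replicate number. The labels do not say what same-numbered libraries share, and the main tests did not use that number. With library sizes alone in place of TMM factors, the share of higher genes among all calls moved from 54.8% to 42.5% for both hairpins in PE, from 41.5% to 56.4% and from 60% to 71.3% for the line differences of hairpins A and B, and from 45.1% to 56.3% and from 48.5% to 58.5% for hairpin B against A in PE and PM. The cause was not tested where none is named. Counts of SLC1A4 and SLC43A1 limit what can be seen of them.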
